A study of Mus musculus with 3 samples.

Results

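The genes of antioxidant and redox defense were examined in endothelial cells of the adult mouse renal cortex. There are 37 such genes, chosen by function as superoxide, peroxide, thioredoxin and glutathione genes, NADPH oxidases, metallothioneins and genes of the Nrf2 pathway. Of these, 35 were among the 19938 genes that had their own probeset on the array, and Prdx5 and Prdx6 were not. Where a gene had several probesets, that of the highest mean stands for it.

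All 3 samples belong to 1 group, called replicates 1, 2 and 3. Each came from 1 adult kidney of a Tie2-GFP transgenic mouse, Tg(TIE2GFP)287Sato, of a mixed background that was mainly CD-1, with sex unknown. GFP is driven by the Tie2 promoter, and the cortex without its medulla and glomeruli was dissociated with collagenase and trypsin before GFP positive cells were sorted. RNA was amplified and hybridized to Affymetrix Mouse Gene 1.0 ST arrays, and the deposited values are log2 signals. With no second group, each gene was tested against a signal of 100 (6.64 on the log2 scale). The filter in the methods used a raw level of 100 in 3 samples, and whether the deposited values share its scale is not known. The words "above" and "below" refer to this limit of 100. They mean an adjusted p under 0.05 by limma's one-sided moderated test across all 35557 probesets. Values are compared between samples of 1 probeset or with this limit, since the levels of different probesets cannot be ranked.

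Superoxide dismutases turn superoxide into hydrogen peroxide, which catalase, glutathione peroxidases and peroxiredoxins then remove. Glutathione reductase and thioredoxin reductases restore the spent thiols at the cost of NADPH. The transcription factor Nrf2, held back by Keap1 in resting cells, turns on many of these genes through antioxidant response elements, while metallothioneins bind zinc and other metals and are induced by them. NADPH oxidases stand on the other side of the balance, because they make superoxide or hydrogen peroxide on purpose, and in endothelium such oxidants act as signals and consume nitric oxide.

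All 12 endothelial markers were above 100, among them the adhesion molecule gene Pecam1 at a mean log2 signal of 10.07 ± 0.02 (SD, n = 3). The study reported that genes specific to its cortical endothelial samples resembled a proximal tubule profile, which it attributed to minor contamination. Here too the sorts held tubular transcripts, with 11 of 14 proximal tubule markers above 100 and 3 neither. The summed signal of these 14 was 16792, 13973 and 14837 in replicates 1, 2 and 3, of which the single gene Kap gave 8360, 7550 and 6570. The summed signal of the endothelial markers was 12650, 13003 and 10689. Sums of different lists cannot be ranked against each other. Replicate 3 had the higher summed signal of smooth muscle and pericyte markers, 3450, against 1586 and 1593 in replicates 1 and 2. Of these 6 markers Rgs5 was above 100, Cspg4 was below, and Acta2, Myh11, Tagln and Pdgfrb were neither. Rgs5 alone gave 804, 830 and 1590 of the sums in replicates 1, 2 and 3. All 8 macrophage and leukocyte markers and all 3 measured erythroid markers were below 100. Of 4 measured podocyte markers Podxl was above, and Nphs1, Wt1 and Synpo were below. Of 8 measured early response genes, which dissociation can induce, Jun was above, 6 were below and Hspa1a was neither. The median log2 signal of the arrays was 5.66 to 5.70. In such bulk samples, fewer cells of a type and less RNA per cell cannot be told apart.

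**Figure D1:**
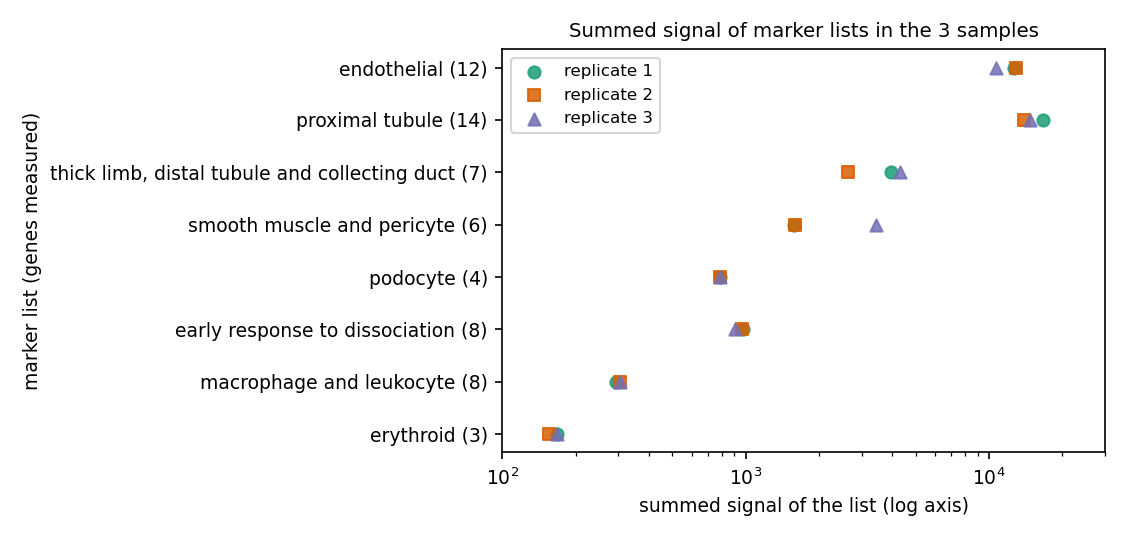
Summed signal of each marker list (horizontal log axis) in the 3 cortical endothelial samples, 1 point per replicate, with the number of measured genes in brackets. The smooth muscle and pericyte sum was 3450 in replicate 3 against 1586 and 1593 in the others, and the sum of the thick limb, distal tubule and collecting duct was 2632 in replicate 2 against 3950 and 4326.

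Most of the antioxidant genes had a signal over the limit. Of the 35 measured members 24 were above a signal of 100, a share of 68.6%, where the share over all genes was 22.9%. Below it were 7 members, or 20.0%, where the share over all genes was 65.0%. The other 4, Gclc, Gsr, Hmox1 and Mt2, were neither. The median log2 signal of the measured members was 7.88. All 3 measured superoxide dismutases and all 5 measured peroxiredoxin and sulfiredoxin genes were above, Prdx2 only at its higher probeset. The thioredoxin and glutaredoxin genes were divided, 3 above and 3 below. Without replicate 1 the count above was 15 (42.9%, against 16.7% of all genes in that fit), and without replicate 3 it was 12 (34.3%, against 16.8% of all genes).

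**Figure D2:**
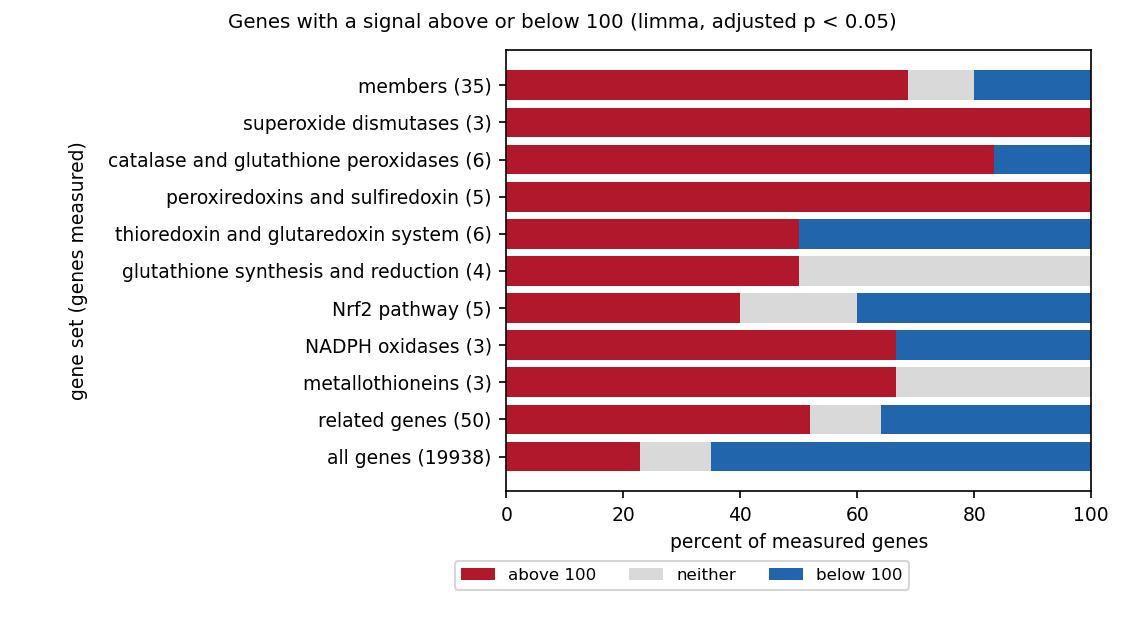
Percent of measured genes above 100, neither, and below 100 (limma, adjusted p under 0.05) for the members, their groups by role, the related genes of the same pathways and all genes. The members reached 68.6% above, the related genes 52.0% and all genes 22.9%.

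The same value was found in the 3 samples for 7 members, Sod2, Sod3, Srxn1, Txn2, Txnrd1, Txnrd2 and Keap1. An SD of 0 gives a small p even close to the limit, and all 7 were called. Equal values made up 40.5% of all probesets. When such probesets were assigned the median SD of the rest, 22 members were above and 5 below. Values equal in a pair of samples were left as they were, for Gpx8, Prdx3, Prdx4, Glrx, Gclm, Nqo1, Hmox2, Nox4 and Mt3. Such pairs can lower the SD too, and the source of the equal values is not known.

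**Figure D3:**
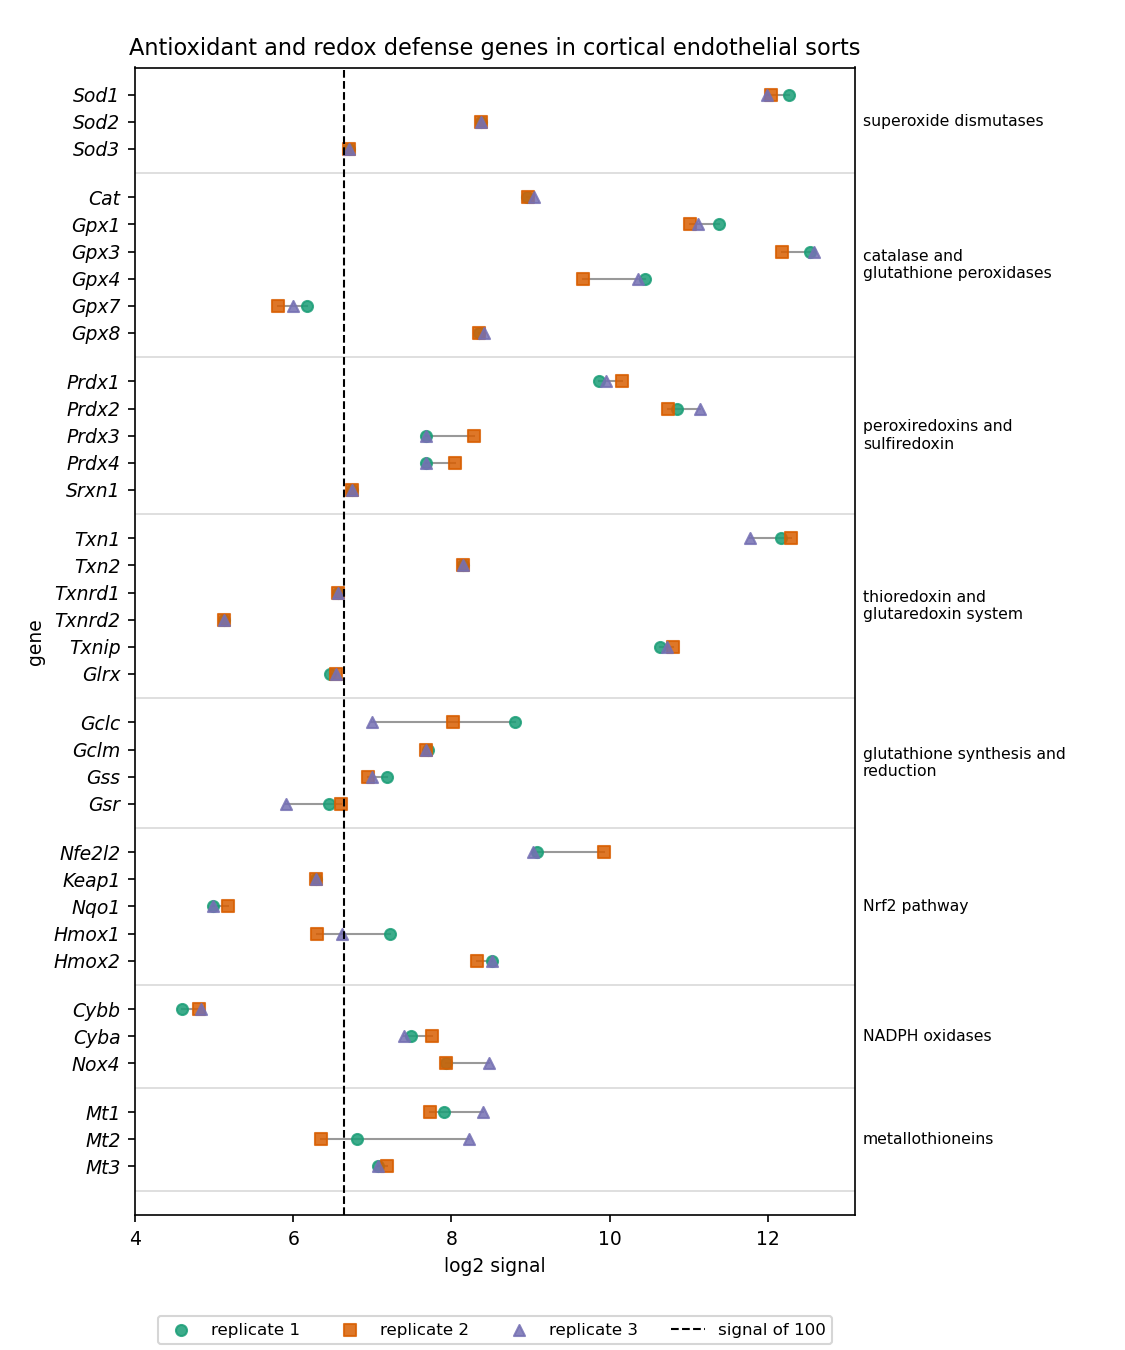
Log2 signal (horizontal axis) of the 35 measured members in each of the 3 samples, grouped by role, with the signal of 100 as a dashed line and a grey line from the lowest to the highest sample. Sod1, Gpx1, Gpx3 and Txn1 lie far right of the line in every sample, Txnrd2, Nqo1 and Cybb lie left of it in every sample, and the samples of Hmox1 and Mt2 lie on both sides.

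Of the superoxide dismutases, the cytosolic copper-zinc enzyme Sod1 had 12.26, 12.04 and 11.99 on the log2 scale in replicates 1, 2 and 3. All 3 values were close together and far over the limit, and averaged 12.10 ± 0.15 (SD, n = 3; adjusted p = 0.000404 by limma). Sod2, the manganese enzyme of mitochondria, had 8.37 in each sample (adjusted p = 1.68e-06). Sod3, the secreted enzyme bound to the matrix, had 6.70 in each sample, a signal of 104 that barely passed the limit (adjusted p = 7.83e-05). Its call ended after quantile normalization (adjusted p = 0.302) and when tied probesets took the median SD of the rest (adjusted p = 1.0).

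Catalase, the peroxisomal enzyme encoded by Cat, had log2 signals of 8.96, 8.97 and 9.04, averaging 8.99 ± 0.04 (SD, n = 3; adjusted p = 0.000181 by limma). Gpx3, the plasma glutathione peroxidase that the kidney makes, had 12.53, 12.18 and 12.58, far over the limit in each sample (adjusted p = 0.000812). Gpx1, the cytosolic enzyme, had 11.38, 11.02 and 11.12 (adjusted p = 0.000927). Gpx4, which reduces lipid peroxides within membranes, had 10.44, 9.66 and 10.36 (adjusted p = 0.00792). Replicate 2 was the lowest for Gpx1, Gpx3 and Gpx4, and for Gpx4 it stood clear of the others, by a factor of 1.73 from the highest sample. The 2 endoplasmic reticulum members of the family differed in their call. Gpx8 was above, with 8.35, 8.35 and 8.41 (adjusted p = 0.000233), and Gpx7 was below, with 6.17, 5.81 and 6.0 (adjusted p = 0.0123). Without replicate 3 the adjusted p was 0.0662 for Gpx1, 0.0540 for Gpx3, 0.160 for Gpx4 and 0.121 for Gpx7, and without replicate 1 it was 0.0975 for Gpx4.

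Tubular markers were also low in replicate 2. Alone among the 3 samples it held the lowest value for 8 of the 14 proximal tubule markers and for 5 of the 6 markers of the thick limb, distal tubule and collecting duct with a mean of 100 or more. The second of these lists summed to 3950, 2632 and 4326 in replicates 1, 2 and 3. The part of tubular RNA in the signals of Gpx1, Gpx3 and Gpx4 was not tested.

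The peroxiredoxins reduce hydrogen peroxide with the help of thioredoxin, and the 4 measured were above 100 at the probeset with the higher mean, although Prdx2 was not at its other probeset. Prdx1, a cytosolic member, had log2 signals of 9.86, 10.15 and 9.95 (adjusted p = 0.00113 by limma). Prdx3, the mitochondrial member, had 7.68, 8.29 and 7.68, so that replicate 2 alone was higher (adjusted p = 0.0396). Prdx4, of the endoplasmic reticulum, had 7.68, 8.04 and 7.68 (adjusted p = 0.0159). In both genes replicates 1 and 3 held equal values, whose source is not known, so the shared shape is uncertain. Srxn1, the sulfiredoxin that repairs overoxidized peroxiredoxins, had 6.74 in each sample, a signal of 107 (adjusted p = 2.59e-05). That call ended with the median SD in place of 0 (adjusted p = 0.846) and after quantile normalization (adjusted p = 0.0960). Without replicate 1 the adjusted p was 0.209 for Prdx3 and 0.135 for Prdx4, and without replicate 3 it was 0.0723 for Prdx1, 0.279 for Prdx3 and 0.193 for Prdx4.

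Prdx2, a cytosolic peroxiredoxin that is abundant in red cells, is uncertain. The probeset with the highest mean had log2 signals of 10.85, 10.74 and 11.14 (adjusted p = 0.00131 by limma), while the other probeset of this gene had 7.13, 6.70 and 7.51 and was neither above nor below (adjusted p = 0.294). The means were 10.91 and 7.11. RefSeq lists the pseudogenes Prdx2-ps1 on chromosome 1 and Prdx2-ps2 on chromosome 4, and signal from copies cannot be told apart from that of Prdx2 here. Which of the 2 probesets reports Prdx2 alone was not tested, so its call above 100 may not be that of the gene. All 3 measured erythroid markers, Alas2, Epb42 and Slc4a1, were below 100, with summed signals of 167, 155 and 167. Prdx1 and Gpx4, which have pseudogenes too, also had a second probeset each. Those second probesets were above 100, with adjusted p = 0.00221 for Prdx1 and 0.0109 for Gpx4, and for Gpx4 replicate 2 was again the lowest (9.88, 9.10 and 9.81).

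In the thioredoxin system, the carriers were above and the reductases below the limit. Txn1, the cytosolic thioredoxin, had log2 signals of 12.17, 12.29 and 11.77 (mean 12.07 ± 0.27, SD, n = 3; adjusted p = 0.00137 by limma). Txn2, its mitochondrial counterpart, had 8.14 in each sample (adjusted p = 1.68e-06). Txnip, which binds thioredoxin and restrains glucose uptake, had 10.64, 10.80 and 10.73, closely grouped (adjusted p = 0.000240). The mitochondrial reductase Txnrd2 had 5.13 in each sample, well under the limit (adjusted p = 4.43e-10). The cytosolic reductase Txnrd1 had 6.56 in each sample, a signal of 94.4, which lies just under it. Glrx, a glutaredoxin that removes glutathione from proteins, lay as close, with 6.46, 6.54 and 6.54. Both were called below 100, Txnrd1 with adjusted p = 3.99e-06 and Glrx with adjusted p = 0.0208. Both calls were lost when tied probesets took the median SD of the rest, with adjusted p = 0.365 for Txnrd1 and 0.112 for Glrx. Without replicate 2 the adjusted p of Glrx was 0.0902, and without replicate 3 it was 0.124.

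Glutathione is made by the glutamate-cysteine ligase of Gclc and Gclm and by the synthetase Gss, and is restored by the reductase Gsr. Gclc, the catalytic subunit of the ligase, had log2 signals of 8.80, 8.02 and 7.0. Every sample exceeded 100, but they were spread over a factor of 3.47, and their mean, 7.94 ± 0.90 (SD, n = 3), did not pass the test for a level over the limit (adjusted p = 0.208 by limma). Gclm, its modifier subunit, had 7.70, 7.68 and 7.68, with replicates 2 and 3 equal (adjusted p = 9.82e-05). Gss had 7.19, 6.95 and 7.0, just above the limit (adjusted p = 0.0472), a call that ended without any 1 of the replicates (adjusted p = 0.0732, 0.189 and 0.334 without replicates 1, 2 and 3). Gsr had 6.45, 6.60 and 5.91, each under 100, with a mean that was not below it by the test (adjusted p = 0.165). Replicate 3 was the lowest for Gclc and Gsr, and also for Txn1. That replicate alone held the lowest value for 6 of the 12 endothelial markers, among them the receptor gene Tek with 10.55, 10.44 and 10.24. The differences were mostly small, with a median deviation of -0.03 (log2) from each marker's own mean in replicate 3. For 1 of the 12, Tie1, replicate 3 alone was the highest (8.20, 8.06 and 8.24). The part of cell composition in the signals of Gclc, Gsr and Txn1 was not tested.

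Within the Nrf2 pathway the regulators were at opposite sides of the limit. Nfe2l2, which encodes Nrf2, had log2 signals of 9.08, 9.93 and 9.03, so that replicate 2 was higher by a factor of 1.87 than the lowest sample, and its mean of 9.35 ± 0.50 (SD, n = 3) was above 100 (adjusted p = 0.0176 by limma). Keap1, the adaptor that leads Nrf2 to degradation, was below, with 6.29 in each sample (adjusted p = 8.16e-08). Nqo1, a quinone reductase and widely used Nrf2 target, was far below, with 4.99, 5.18 and 4.99 (adjusted p = 0.000633). The inducible heme oxygenase Hmox1 had 7.22, 6.30 and 6.62. Only replicate 1 exceeded 100, and the mean of 6.71 ± 0.47 (SD, n = 3) was neither above nor below (adjusted p = 1.0 and 0.834). Hmox2, the constitutive heme oxygenase, was above, with 8.51, 8.32 and 8.51 (adjusted p = 0.00189). Without replicate 3 the adjusted p was 0.195 for Nfe2l2 and 0.0837 for Hmox2, and without replicate 1 it was 0.147 for Nfe2l2.

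Promoter windows from RefSeq (GRCm38.p6, 250 bases before to 50 after each transcription start) were found for 32 of the 37 members and searched on both strands for the core of the antioxidant response element, TGACNNNGC. The core was present for 7 of the 32 genes (21.9%), and for 14.0% of all 27025 genes with a window (12.4% of 32851 windows). In the matches below, which show how the core differs between these members, the core is in capitals and each line reads 5′ to 3′ along the strand of the match. The cores of Prdx1 and Mt2 also hold the AP-1 motif TGACTCA. A match describes the letters only.
Nfe2l2, chr2:75704885-75704913, minus strand: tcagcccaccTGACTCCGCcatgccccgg
Prdx1, chr4:116685456-116685484, minus strand: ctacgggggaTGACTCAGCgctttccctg
Gclm, chr3:122245413-122245441, minus strand: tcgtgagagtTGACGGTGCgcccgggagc
Srxn1, chr2:152105542-152105570, minus strand: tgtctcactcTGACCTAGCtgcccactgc
Sod1, chr16:90220696-90220724, minus strand: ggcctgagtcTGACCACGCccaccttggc
Txnrd1, chr10:82859104-82859132, minus strand: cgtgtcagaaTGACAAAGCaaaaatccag
Mt2, chr8:94172529-94172557, plus strand: aaagggggtgTGACTCAGCgcggggggtg

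Of these 7 genes, Nfe2l2, Prdx1, Gclm, Srxn1 and Sod1 were above 100, Txnrd1 was below and Mt2 was neither. The core of Txnrd1 belongs to 1 of its 3 annotated starts, and the core of Srxn1 lies 28 bases after the start.

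Of the NADPH oxidase genes, Nox4, the oxidase form that was first described in kidney, had log2 signals of 7.93, 7.93 and 8.47 and was above 100 (adjusted p = 0.0225 by limma). Cyba, which encodes the p22phox subunit that Nox4 needs, was also above, with 7.49, 7.76 and 7.40 (adjusted p = 0.0213). Cybb, the catalytic subunit of the phagocyte oxidase, was below, with 4.59, 4.81 and 4.83, and the samples were close together (adjusted p = 0.000683). The 8 macrophage and leukocyte markers, all below 100, summed to 293, 305 and 305. Replicate 3 was higher than the others for Nox4, by a factor of 1.45, and replicate 3 was also the sample with the higher sum of smooth muscle and pericyte markers, a type that expresses Nox4 as well. Their part in the signal of Nox4 was not tested. Without replicate 1 the adjusted p was 0.159 for Nox4 and 0.177 for Cyba, without replicate 2 it was 0.159 for Nox4 and 0.0536 for Cyba, and without replicate 3 it was 0.182 for Cyba.

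The metallothioneins differed most between samples in Mt2. Mt2 had log2 signals of 6.80, 6.35 and 8.22, on both sides of the limit, with replicate 3 higher by a factor of 3.66 than replicate 2. Its mean of 7.12 ± 0.98 (SD, n = 3) was neither above nor below 100 (adjusted p = 0.823 for a mean above by limma). Mt1 followed the same order of samples at a smaller range, with 7.90, 7.73 and 8.40, and was above (adjusted p = 0.0329). Mt3, known mainly from brain, was above with 7.07, 7.19 and 7.07 and was not highest in replicate 3 (adjusted p = 0.0116). Without replicate 1 the adjusted p was 0.219 for Mt1 and 0.115 for Mt3, without replicate 2 it was 0.155 for Mt1, and without replicate 3 it was 0.108 for Mt1 and 0.170 for Mt3. Replicate 3 was highest for Mt1 and Mt2 also after quantile normalization, and it is the sample with the higher smooth muscle and pericyte sum (3450). The part of those cells in the metallothionein signal was not tested.

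Mt1 and Mt2 are neighbours on chromosome 8 in the RefSeq annotation, and Mt3 and Mt4 lie next to them with a noncoding gene between Mt3 and Mt2. Metallothionein genes respond to metals through metal response elements. Their core was searched as TGCACNC or TGCGCNC, both strands, in the same promoter windows. It was found for 11 of the 32 members (34.4%) and for 28.2% of all genes with a window (25.7% of windows). In Gclm such a core overlaps the antioxidant response element core. The matches of the 3 metallothioneins were picked with the order of samples known, which Mt1 and Mt2 shared and Mt3 did not. A link between the cores and that order was not tested, and the matches describe the letters only. The core is in capitals and lines read 5′ to 3′ along the strand of the match.
Mt2, chr8:94172388-94172408, plus strand: tcgcctcTGCACCCggcccct
Mt2, chr8:94172483-94172503, plus strand: gacccttTGCGCTCagctcct
Mt2, chr8:94172561-94172581, minus strand: cagagccTGCACACgccctcc
Mt2, chr8:94172615-94172635, minus strand: ctgggccTGCGCACgacccga
Mt1, chr8:94179059-94179079, plus strand: cccgctgTGCACACtggcgct
Mt1, chr8:94179084-94179104, plus strand: ggagctcTGCACTCcgcccga
Mt1, chr8:94179102-94179122, plus strand: cgaaaagTGCGCTCggctctg
Mt3, chr8:94152627-94152647, plus strand: acagcagTGCACACacacgga

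The window of Mt2 held 4 such cores, that of Mt1 held 3 and that of Mt3 held 1, after its start. Cores of Mt1 began 2 and 20 bases after its annotated start. These counts depend on where the annotated starts lie, and cores outside the windows were not searched. A relation between the counts and the differences between samples was not tested. The 250 bases before the start of Mt2 (GRCm38.p6, chr8:94172368-94172617, plus strand) are given to show how the 3 cores before the start are placed, in capitals, the nearest of which reads on the minus strand.
Mt2: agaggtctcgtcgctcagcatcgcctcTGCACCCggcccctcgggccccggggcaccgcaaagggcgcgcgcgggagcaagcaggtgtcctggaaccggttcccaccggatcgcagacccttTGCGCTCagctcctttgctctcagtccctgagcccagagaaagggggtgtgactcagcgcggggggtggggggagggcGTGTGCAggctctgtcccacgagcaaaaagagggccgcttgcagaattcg

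The variation between samples was uneven across the members. Among the 27 members with a mean signal of 100 or more the median SD was 0.184 on the log2 scale, and it was 0.103 over the 6127 genes with such a mean. Equal values in the 3 samples, with an SD of 0, made up 14.8% of these members and 27.5% of these genes. Without them the median SD was 0.204 for 23 members and 0.188 for 4443 genes, so that most of that gap lay with the equal values. The highest and lowest samples were more than 0.5 apart for 9 of the 27 (33.3%) and for 26.7% of those genes, or 39.1% and 36.8% without the equal values. The range of Mt2, 1.87, was larger than that of 98.3% of the 6127 genes, and the range of Gclc, 1.80, was larger than that of 97.9%. No 1 sample was high throughout. Replicate 1 alone was the highest for 7 of the 27, replicate 2 for 8 and replicate 3 for 7, and the median deviation of the members was between -0.008 and 0.0 in the 3 samples.

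**Figure D4:**
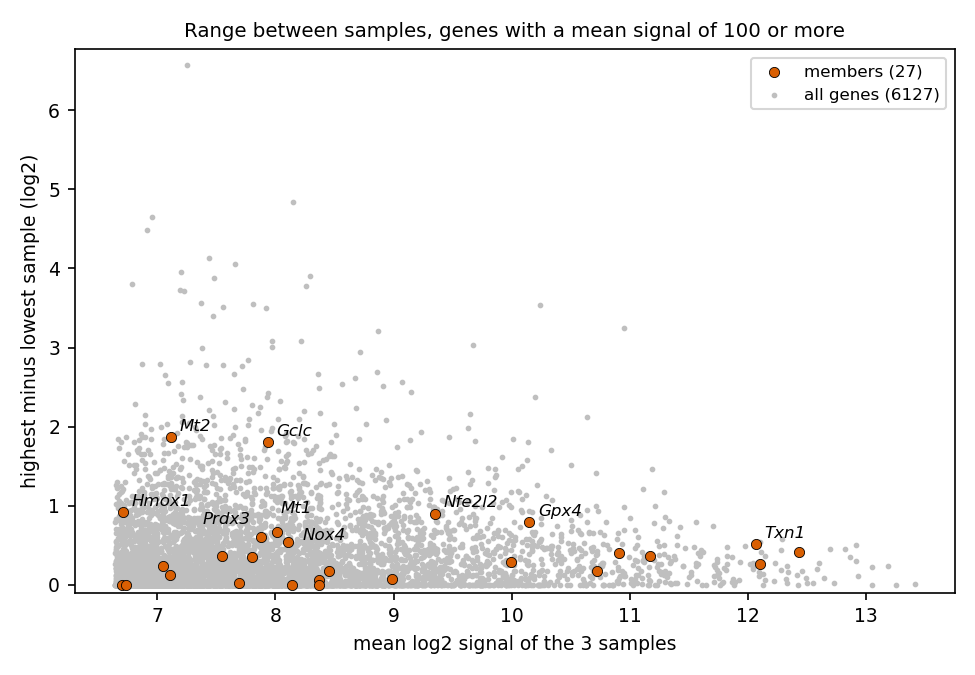
Highest minus lowest sample on the log2 scale (vertical axis) against the mean log2 signal (horizontal axis) for the 27 members (orange) and the 6127 genes (grey) with a mean signal of 100 or more. Members with a range over 0.5 are named, with Mt2 at 1.87 and Gclc at 1.80.

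The members with a range over 0.5 fell into different patterns. Replicate 2 was the highest for Nfe2l2, Prdx3, Gsr and Txn1 and the lowest for Gpx4, Hmox1, Mt1 and Mt2. Replicate 3 was the highest for Mt1, Mt2 and Nox4. Replicate 1 was the highest for Gclc, Hmox1 and Gpx4. With quantile normalization each of these genes kept its highest sample. The lowest sample of Nfe2l2 changed, where replicates 1 and 3 differed by less than 0.1 in either case (9.08 and 9.03 as deposited, 9.07 and 9.08 normalized). For Prdx3 and Nox4, whose lowest value was shared by a pair of samples as deposited, replicate 1 alone was lowest after normalization.

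**Figure D5:**
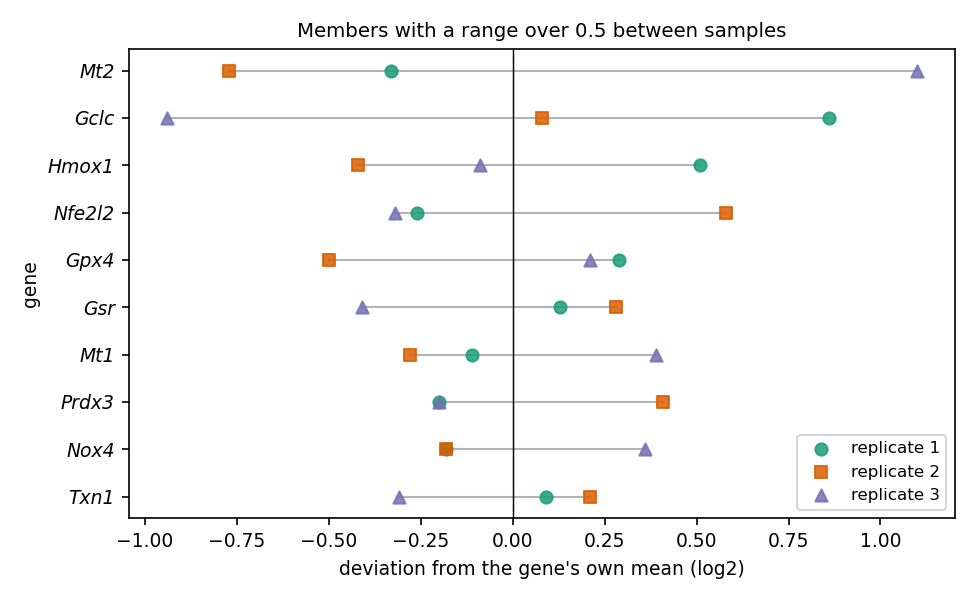
Deviation of each sample from the gene's own mean (log2, horizontal axis) for the 10 members with a range over 0.5, 1 symbol per replicate. Replicate 3 deviates by 1.10 for Mt2 and by -0.94 for Gclc, and replicate 2 by 0.58 for Nfe2l2 and by -0.50 for Gpx4.

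Other genes of the same pathways were taken from a list of 52, of which 50 were measured. Of these, 26 (52.0%) were above 100 and 18 (36.0%) were below, where the shares over all genes were 22.9% and 65.0%. Without replicate 3 the count above was 15 (30.0%, against 16.8% of all genes). Among the other glutathione peroxidases, thioredoxin-fold proteins and repair enzymes 10 of 18 were above and 5 below. Gpx2, a peroxidase of gut epithelium, and Gpx5, of the epididymis, were below, with mean log2 signals of 5.18 ± 0.20 for Gpx2 and 3.97 ± 0.00 for Gpx5 (SD, n = 3 each). Gpx6, an olfactory member, was neither, with 7.01, 5.68 and 6.27. The reductase Txnrd3 was below too, at 4.95 ± 0.34, so that none of the 3 thioredoxin reductase genes was above the limit. The others below were Msra, a methionine sulfoxide reductase, at 6.12 in each sample, and the sestrin Sesn2 at 5.56 ± 0.14. Glrx3 and Sesn3 were neither.

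The other NADPH oxidase subunits were mostly below, 8 of 9 measured (88.9%), where the share over all genes was 65.0%. For 7 of the 9 the values of the 3 samples were equal, and an SD of 0 gives a small p. Nox1, the colonic oxidase, stood at 4.34 (log2) in each sample, and its partners Noxa1 and Noxo1 had 5.46 ± 0.00 and 5.69 ± 0.03 (SD, n = 3). Ncf1 (p47phox) had 5.53 in each sample. The subunit above was Rac1, a GTPase with many other roles, with 10.70, 10.64 and 10.78 (adjusted p = 0.000160 by limma).

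Of the other Nrf2 regulators and targets 11 of 17 were above and 4 below (64.7% and 23.5%, against 22.9% and 65.0% of all genes). Nfe2l1, a relative of Nrf2, had 9.49 in each sample, and Bach1, a repressor that competes for the same elements, had 7.20 in each, both above. Mafg, a small Maf protein that pairs with Nrf2, was above as well, with 7.81 in each. Nfe2l3, another relative, was below, with 5.69 in each. The others below were Slc7a11, the cystine carrier that feeds glutathione synthesis, at 4.25 in each sample, Osgin1 at 6.03 and Blvrb at 6.57. The call for Blvrb rests on 3 equal values near the limit. Mafk and Blvra were neither.

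NADPH, the reducing power of these systems, comes from the pentose phosphate pathway, isocitrate dehydrogenases and the mitochondrial transhydrogenase. G6pdx of this list had no probeset of its own and was not measured. Of the 6 measured genes, Pgd and Taldo1 of the pentose phosphate pathway and the isocitrate dehydrogenases Idh1 and Idh2 were above. Pgd stood at 7.04 (log2) in each sample and Taldo1 had 7.26 in each, while Idh1 had 10.11, 10.02 and 10.11 and Idh2 had 8.12, 7.76 and 8.20. Tkt, the transketolase, was below, with 6.12, 6.12 and 6.47 (adjusted p = 0.0399 by limma). Nnt, the mitochondrial transhydrogenase, was neither, with 7.40, 7.30 and 7.98.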

How the data were processed

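The deposited values are log2 signals per probeset, normalized by the authors with RMA in GeneSpring GX per the methods, while the submitters' processing notes name Affymetrix Expression Console. Which arrays entered that normalization, and the version of Expression Console, is not given in the sources used here. Nothing was renormalized for the main values. Probesets were named from the platform annotation, with symbols updated through RefSeq. Of 35557 probesets, 21789 had 1 gene, 1621 had several and 12147 had none, and genes were taken only from the first of these.

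Log2 signals minus log2 of 100 were fitted with an intercept in limma 3.58.1 (R 4.3.3), with eBayes and a mean-variance trend, tested one-sided each way and adjusted by Benjamini-Hochberg over all probesets. The code was tested on simulated data, where only probesets without 3 equal values were counted. That test therefore does not cover the calls of equal values. The number of arrays, 3, limits precision. Each sample was 1 kidney, not pooled, and the study describes its samples as biologically independent.

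Members and lists were chosen with earlier results of these data known. Text names every member, up to 4 genes of each other list in the order written, and every gene of a count of 5 or fewer. Alternatives were other limits, normalizations, variance models and probeset rules, and leaving out each replicate. Using the probeset with the lowest mean, and giving the spread without equal values, were chosen after seeing the data.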

Additional observations from a re-analysis of the deposited data

How the results depend on the processing

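The counts depend on the limit. With a signal of 200 in place of 100, 13 of 35 members (37.1%) were above and 13 (37.1%) below, 15 of 50 related genes (30.0%) were above and 29 (58.0%) below, and of all genes 9.37% were above and 80.6% below. With a signal of 50, 29 members (82.9%), 37 related genes (74.0%) and 51.3% of all genes were above. Below 50 were 3 members (8.57%), 9 related genes (18.0%) and 40.5% of all genes. Leaving out each replicate in turn gave 12 to 20 members above and 5 to 7 below, and 15 to 21 related genes above and 16 to 19 below, with fewer samples in each fit. Of all genes, 16.7% to 17.1% were above and 62.2% to 62.6% below in these fits. The call held in all 3 of these fits for 11 of the 24 members above, 5 of the 7 below and 2 of the 4 that were neither.

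Against 200, members on the other side of the limit were Sod3 (adjusted p = 2.09e-08 by limma), Srxn1 (2.52e-08), Gss (0.00578), Hmox1 (0.0350), Cyba (0.262), Mt2 (0.253) and Mt3 (0.00211). Against 50 they were Gpx7 (adjusted p = 0.0631 by limma), Txnrd1 (1e-07), Glrx (0.000694), Gsr (0.0693) and Keap1 (1e-07). The mean of Hmox1 lay under 100 without replicate 1 (adjusted p = 0.285 by limma, range 0.285 to 1.0 over the fits without 1 replicate), and so did that of Mt2 without replicate 3 (0.573, range 0.573 to 1.0). Quantile normalization and shifted medians each ended 2 calls among 35, those of Sod3 and Srxn1. Dropping the mean-variance trend, adjusting over probesets of 1 gene and averaging probesets ended none of the 35.

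No paired analysis was possible because there is 1 group of samples. Low signals on arrays include background hybridization, so a signal below 100 does not show that a gene is silent.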

Other observations

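The following genes of heme and iron handling were picked after their values were seen, and others differed less between samples, such as Blvrb with 6.57 in each. Blvra, the biliverdin reductase that acts after heme oxygenase, had 7.80, 7.40 and 8.88 on the log2 scale in replicates 1, 2 and 3, in the same order as Mt2, with a mean of 8.03 ± 0.76 (SD, n = 3) that did not pass the test for a level over 100 (adjusted p = 0.139 by limma). The ferritin light chain gene Ftl1 had 10.64, 10.00 and 10.61, lowest in replicate 2 as was Gpx4 (adjusted p = 0.00483). The heavy chain gene Fth1 had 13.08, 12.92 and 13.15, with the samples closer together (adjusted p = 0.000192).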
